A study of Mus musculus with 6 samples.

Results

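Ribosome biogenesis and RNA polymerase I genes were compared between 3 mouse RNA-seq libraries labelled VprBP shRNA (genotype label VprBP1 Knockdown) and 3 labelled control shRNA (genotype label WT), all labelled as bone marrow-derived macrophages. The members were the protein-coding genes of the deposited table whose symbols name nucleolar processing factors (Nop, Nol, Utp, Rrp, Gnl2, Gnl3 and Gnl3l, Imp3 and Imp4), subunits of RNA polymerase I (Polr1) or a short set of further factors, such as Pes1, Bop1, Fbl, Dkc1, Ncl and Npm1. The rule used names and no measured value. It found 62 of the 14222 protein-coding gene IDs and of the 18908 gene IDs in all. Such hairpins (shRNAs) are made to knock down a matching transcript, here that of Dcaf1, known before as VprBP, which brings substrates to a cullin ubiquitin ligase. The labels give no hairpin sequence, vector, time after delivery, animal or culture, so what sets the 3 libraries of a group apart is not known.

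A ribosome is built in the nucleolus from an RNA precursor that RNA polymerase I transcribes. Small nucleolar RNPs (snoRNPs, particles of a guide RNA and its proteins) modify that precursor, the small subunit processome folds and cuts its first part, and a separate chain of factors assembles the large subunit. Growing and dividing cells make many ribosomes, and genes of the pathway are known targets of the transcription factor MYC.

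Total counts per library were 16839445 to 21838875. Dcaf1, the targeted gene, had 35.96, 34.6 and 36.8 CPM (scaled counts relative to library size, with TMM factors) in the VprBP shRNA libraries, against 42.2, 43.5 and 40.7 CPM in the control shRNA libraries. The groups did not overlap, with a log2 difference of -0.24 (SE 0.07, edgeR adjusted p = 0.00625). With scaling by library size only it was -0.12 and not called (edgeR adjusted p = 0.137). Of all 14641 genes tested, 75.0% had an edgeR adjusted p below 0.05, and 77.2% did not overlap between groups. Their median absolute log2 difference was 0.69, larger than the difference of Dcaf1, so these values do not set Dcaf1 apart from other genes. The labelled cell type was not borne out by its markers. Only 5 of 13 macrophage markers had a row, with a summed level of 20.2 to 21.1 CPM in the VprBP shRNA and 37.3 to 40.5 CPM in the control shRNA libraries, and Csf1r, Adgre1, Itgam, Spi1, Tyrobp, Aif1, Fcgr1 and Ptprc had none. Cd68 made up most of the control shRNA sum, at 1.01 ± 0.270 CPM in the VprBP shRNA and 31.6 ± 1.196 CPM in the control shRNA libraries, while Lyz2, Mertk and Laptm5 rose (2.37-fold, 2.504-fold and 12.2-fold) and Cd14 was not called. All 8 pigment cell markers had one, with a sum of 19654 to 20163 CPM in the VprBP shRNA and 21075 to 21454 CPM in the control shRNA libraries. These moved in opposite directions: 5 rose, Tyr, Sox10 and Mitf by 3.79-fold, 3.51-fold and 3.44-fold, and Slc45a2, Pmel and Mlana fell 3.81-fold, 2.78-fold and 2.68-fold. All directions below are between labels. The 10 proliferation markers, Mki67 and Top2a among them, all rose, to a sum of 1082 ± 23.1 CPM in the VprBP shRNA libraries, against 122 ± 3.11 CPM in the control shRNA libraries (SD, n = 3 each). Mitochondrially encoded genes summed to 50074 ± 3292 CPM in the VprBP shRNA and 95145 ± 4846 CPM in the control shRNA libraries. The part of these groups of genes in the results below was not tested. In libraries made from bulk RNA, fewer cells of a type and less RNA per cell cannot be told apart.

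The VprBP shRNA libraries held less of most ribosome biogenesis transcripts. A gene is called here at an edgeR adjusted p below 0.05, over all 14641 genes tested. All 62 members passed the filter on low counts, and 48 of them (77.4%) fell, where 37.0% of all genes tested fell. Only 7 (11.3%) rose, against 37.9% of all genes: Ncl, Npm1, Gnl3l, Rrp1, Utp6, Nol4 and Nol4l. The other 7 were not called. A fall of at least 2-fold was called for 18 members (29.0%), against 14.2% of all genes, and a rise of that size for 2 (3.23%), against 19.4%. In all, 55 members (88.7%) were called either way, where 75.0% of all genes were, so the calls differed from the background mainly in their direction. The libraries of the groups did not overlap for 54 members (87.1%) and for 77.2% of all genes. The median log2 difference was -0.66 over the members and -0.01 over all genes tested, and the members' differences had an SD of 0.74, against 1.497 over all genes. The shares of all genes given here are the background for each group of members below.

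**Figure D1:**
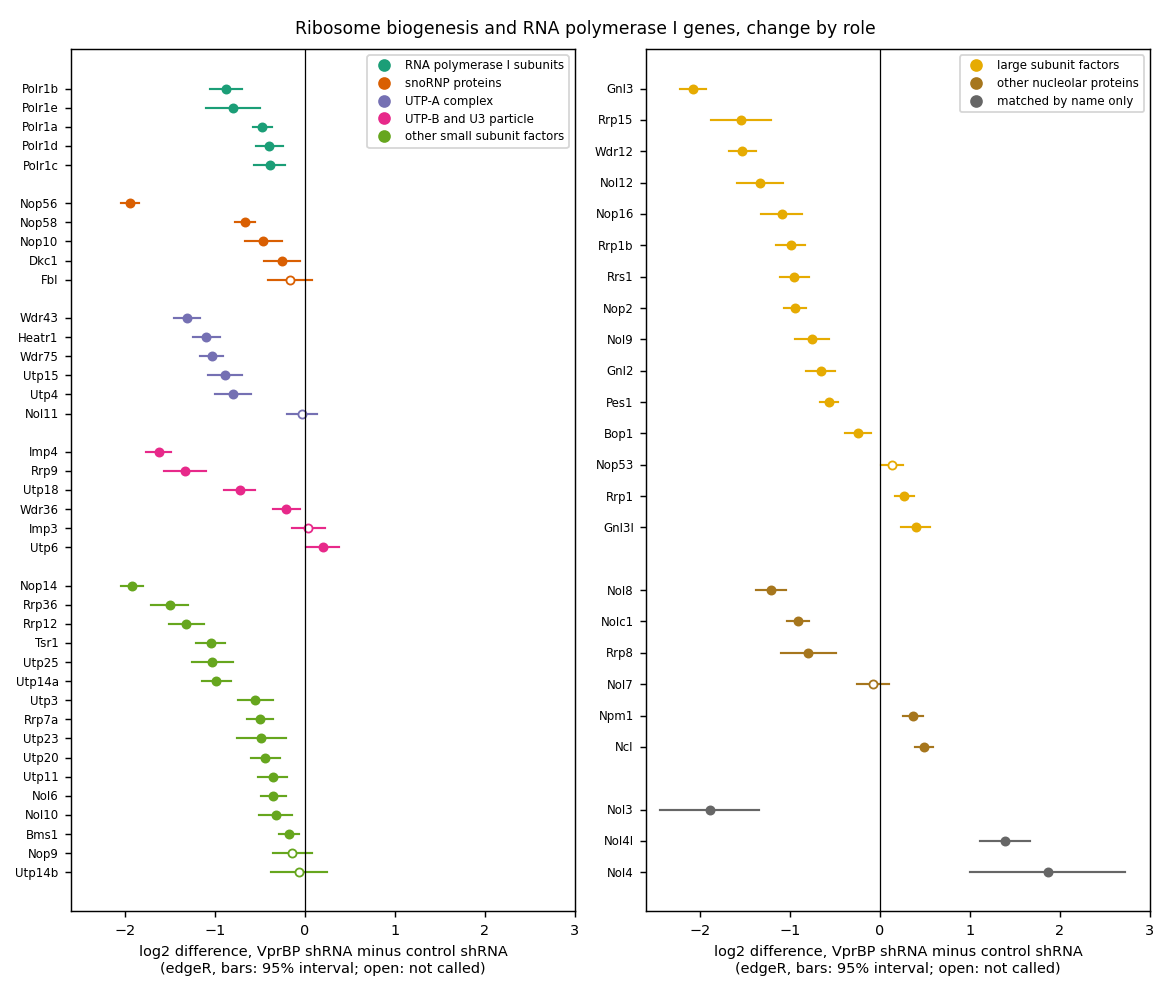
Log2 difference (VprBP shRNA minus control shRNA, x axis) of each of the 62 members, with its 95% interval from edgeR, grouped by role down the page. Filled points were called and open points were not. 48 filled points lie left of 0 and 7 lie right of it.

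Summed over the 62 members, the level was 2911, 2986 and 3022 CPM in VprBP shRNA libraries 1, 2 and 3, against 4408, 4341 and 4324 CPM in the control shRNA libraries. The sums did not overlap, and the VprBP shRNA mean (2973 ± 56.2 CPM) was 68.2% of the control shRNA mean (4358 ± 44.3 CPM). Without Ncl and Npm1, which rose, the mean was 2281 ± 17.9 CPM in the VprBP shRNA libraries, 59.4% of the 3840 ± 25.1 CPM in the control shRNA libraries. Of the raw counts, the members took 0.303% to 0.315% in the VprBP shRNA and 0.416% to 0.422% in the control shRNA libraries. Nop56 alone made up 26.4% of the fall of the sum.

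All 5 members that are subunits of RNA polymerase I fell, with a median log2 difference of -0.47. Among these Polr1b, which forms the active centre with Polr1a, changed most. It was at 18.7, 20.1 and 19.4 CPM in the VprBP shRNA libraries, against 34.8, 36.7 and 35.5 CPM in the control shRNA libraries. Every VprBP shRNA library lay below every control shRNA one, and the fall was 1.84-fold (log2 -0.88, SE 0.08, edgeR adjusted p = 2.49e-08). Polr1e, part of a module that helps the enzyme to start transcription, fell 1.74-fold (7.33 ± 0.204 CPM in the VprBP shRNA and 12.8 ± 1.63 CPM in the control shRNA libraries, edgeR adjusted p = 6.88e-05). Polr1a, the largest subunit, fell less, by 1.39-fold, and stood at 143 ± 6.56 CPM in the VprBP shRNA and 199 ± 5.92 CPM in the control shRNA libraries (edgeR adjusted p = 9.35e-08). Polr1c and Polr1d, which RNA polymerase III also contains, fell by 1.31-fold and 1.32-fold (edgeR adjusted p = 0.000314 and 6.98e-05).

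Of the snoRNP proteins, 4 of 5 fell, and their changes were unequal. Nop56, a scaffold of the box C/D snoRNP that methylates ribosomal RNA (ENSMUSG00000027405.16), was at 124, 126 and 134 CPM in the VprBP shRNA libraries, against 502, 494 and 486 CPM in the control shRNA libraries. The groups lay far apart, and the fall was 3.86-fold (log2 -1.95, SE 0.05, edgeR adjusted p = 7.80e-17). Nop58, which pairs with Nop56 in the same particle, fell 1.59-fold (78.6 ± 2.87 CPM in the VprBP shRNA and 125 ± 3.65 CPM in the control shRNA libraries, edgeR adjusted p = 2.41e-09). Fbl, the methyltransferase of the particle, was not called, at 23.0 ± 2.91 CPM in the VprBP shRNA and 25.9 ± 3.99 CPM in the control shRNA libraries (log2 -0.17, 95% interval -0.41 to 0.08). In the box H/ACA snoRNP, which makes pseudouridine, Nop10 fell 1.38-fold (edgeR adjusted p = 0.000321). Dkc1, its catalytic subunit, fell 1.19-fold (edgeR adjusted p = 0.0214), a call that was lost with library size only, with DESeq2 and without VprBP shRNA library 3 or control shRNA library 3.

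The box C/D proteins carry uncertainty from near-identical copies. Of the 50-base stretches in the longest annotated coding transcript of Fbl, 73.0% also occur in other genes, mainly Tulp4 and the pseudogene Gm5812. Tulp4 was at 115 ± 1.71 CPM in the VprBP shRNA and 87.2 ± 1.06 CPM in the control shRNA libraries, above Fbl. Gm5812 was at 2.62 ± 0.843 CPM in the VprBP shRNA and 6.21 ± 0.307 CPM in the control shRNA libraries. The value of Fbl thus rests on how the authors' counting shared such reads. Nop56 shares 37.6% of its stretches with 6 processed pseudogenes. Of these, the 3 with a row and over 5% of the stretches stood at 0.0839, 0.0646 and 0.0539 CPM in the VprBP shRNA and 0.981, 0.212 and 0.223 CPM in the control shRNA libraries, well under the level of Nop56.

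The UTP-A complex is the first part of the small subunit processome to bind the growing precursor. Of its 6 members, 5 fell (median log2 -0.96), 3 of them by at least 2-fold. Wdr43 was at 38.7, 44.9 and 46.5 CPM in the VprBP shRNA libraries, against 112, 104 and 106 CPM in the control shRNA libraries. The groups did not overlap and the fall was 2.48-fold (log2 -1.31, SE 0.07, edgeR adjusted p = 6.12e-12). Heatr1 fell 2.14-fold, Wdr75 2.05-fold, Utp15 1.85-fold and Utp4 1.74-fold (edgeR adjusted p from 2.64e-11 to 6.36e-07). Nol11 was not called: its 3 VprBP shRNA libraries lay between 29.9 and 32.9 CPM and its control shRNA libraries between 30.1 and 33.2 CPM (log2 -0.04, 95% interval -0.21 to 0.13).

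The UTP-B complex and the U3 particle, which base-pairs with the precursor, behaved less evenly: 4 members fell, 1 rose and 1 was not called (median log2 -0.47). Imp4, a protein of the U3 particle, was at 24.7, 23.0 and 24.8 CPM in the VprBP shRNA libraries, against 75.3, 74.7 and 74.0 CPM in the control shRNA libraries. The fall was 3.09-fold with no overlap (log2 -1.63, SE 0.07, edgeR adjusted p = 2.00e-13). Imp3, its partner in the particle, was not called (27.5 ± 1.85 CPM in the VprBP shRNA and 26.7 ± 1.39 CPM in the control shRNA libraries, log2 0.04, 95% interval -0.15 to 0.22). Rrp9, which binds the U3 RNA itself, fell 2.53-fold (edgeR adjusted p = 4.76e-09), and Utp18 of UTP-B fell 1.66-fold (edgeR adjusted p = 2.07e-07). Wdr36 of UTP-B fell 1.15-fold (edgeR adjusted p = 0.0152). Utp6, also of UTP-B, stood at 41.6, 50.8 and 50.3 CPM in the VprBP shRNA libraries, against 45.3, 39.4 and 39.6 CPM in the control shRNA libraries. Its groups overlapped, and although it was called higher (1.15-fold, edgeR adjusted p = 0.0461), the call was lost under 6 of 12 alternatives, among them DESeq2 and leaving out VprBP shRNA library 2 or 3 or control shRNA library 2 or 3. The Wdr36 call was lost with library size only, with DESeq2 and without VprBP shRNA library 2 or 3 or control shRNA library 2.

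**Figure D2:**
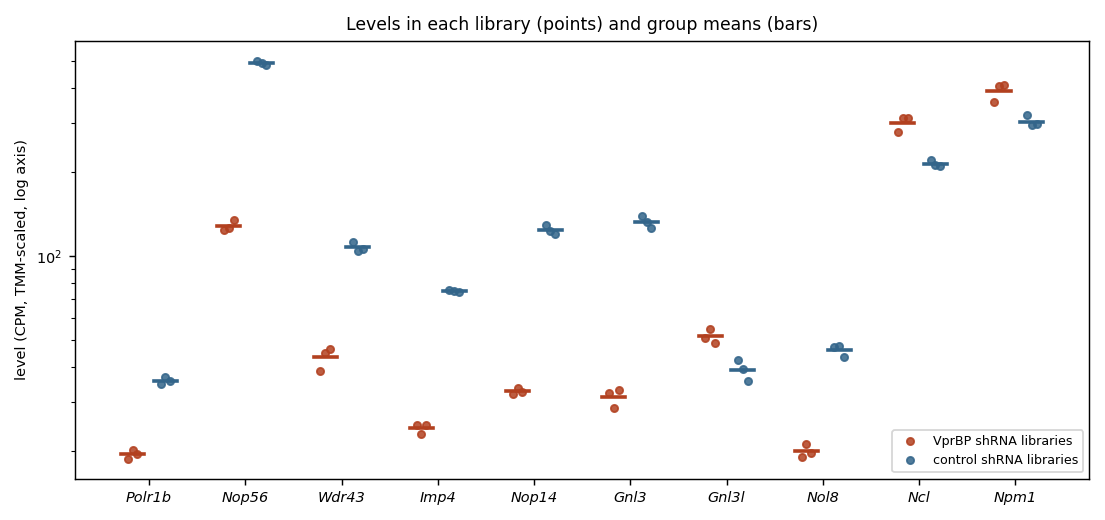
Level in each library (points, CPM, log axis) and group means (bars) for the member that changed most in each pathway role, with Gnl3l, Ncl and Npm1 added. VprBP shRNA libraries are left of control shRNA libraries for each gene. The groups do not overlap for any of the 10 genes, and the VprBP shRNA libraries are the higher ones for Gnl3l, Ncl and Npm1.

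Among 16 other factors of the small subunit, 14 fell, 5 of them by at least 2-fold, and none rose (median log2 -0.49). Utp25 was placed here after its values were seen. Nop14, a core protein of the processome, was at 32.1, 33.6 and 32.5 CPM in the VprBP shRNA libraries, against 129, 123 and 120.35 CPM in the control shRNA libraries. The fall was 3.80-fold, and each group kept within a narrow range (log2 -1.93, SE 0.06, edgeR adjusted p = 3.21e-15). Rrp36, needed for the early cuts, fell 2.84-fold, and Rrp12, which acts in the export of the subunit, fell 2.50-fold (edgeR adjusted p = 1.43e-10 and 3.23e-10). Tsr1, a GTPase-like factor of the last steps in the cytoplasm, fell 2.07-fold, and Utp25 fell 2.04-fold (edgeR adjusted p = 8.23e-10 and 8.93e-08). The other 9 that fell, Utp14a, Utp3, Rrp7a, Utp23, Utp20, Utp11, Nol6, Nol10 and Bms1, did so by 1.13-fold (Bms1, the GTPase of the processome) to 1.98-fold (Utp14a, which in yeast activates a helicase that releases the U3 RNA). The Bms1 call was lost with library size only (edgeR adjusted p = 0.271). Nop9, an RNA-binding protein, was at 24.4 ± 3.30 CPM in the VprBP shRNA and 26.8 ± 2.24 CPM in the control shRNA libraries and was not called. Utp14b, a copy of Utp14a that lies within Acsl3 and is known for its role in sperm formation, was at 8.83 ± 0.767 CPM in the VprBP shRNA and 9.27 ± 1.07 CPM in the control shRNA libraries and was not called either.

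Large subunit factors fell in 12 of 15 cases, 5 of them by at least 2-fold (median log2 -0.95). Gnl3, or nucleostemin, a nucleolar GTPase that is abundant in stem and tumour cells (ENSMUSG00000042354.7), fell more than any other member. It was at 32.2, 28.4 and 33.0 CPM in the VprBP shRNA libraries, against 139, 132 and 125 CPM in the control shRNA libraries. The groups lay far apart, with a 4.24-fold fall (log2 -2.08, SE 0.07, edgeR adjusted p = 6.12e-15). Gnl3l, its paralog, moved the other way: it was at 50.8, 54.7 and 48.8 CPM in the VprBP shRNA libraries, against 42.4, 39.15 and 35.5 CPM in the control shRNA libraries. These groups did not overlap either, and the rise was 1.32-fold (log2 0.40, SE 0.08, edgeR adjusted p = 0.000170).

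Rrp15 fell 2.92-fold, Nol12 2.52-fold and Nop16 2.14-fold (edgeR adjusted p = 8.57e-08, 1.49e-08 and 4.55e-08). In the PeBoW complex, which large subunit assembly needs, Wdr12 fell 2.89-fold (27.5 ± 2.15 CPM in the VprBP shRNA and 79.6 ± 3.58 CPM in the control shRNA libraries, edgeR adjusted p = 1.30e-12). Its partners fell less, Pes1 by 1.48-fold (edgeR adjusted p = 7.73e-09) and Bop1 by 1.18-fold (edgeR adjusted p = 0.00384), and the Bop1 call was lost with library size only (edgeR adjusted p = 0.105). Nop2, a methyltransferase of the large ribosomal RNA, fell 1.93-fold, Rrs1, which helps to load the 5S RNP, 1.94-fold, Nol9, a polynucleotide kinase, 1.69-fold, and Gnl2, another GTPase, 1.58-fold. Rrp1b fell 1.995-fold, just short of 2-fold (log2 -0.996), while its paralog Rrp1 rose 1.205-fold (143 ± 0.659 CPM in the VprBP shRNA and 119 ± 5.53 CPM in the control shRNA libraries, edgeR adjusted p = 0.000101). Nop53, which brings the RNA exosome to large subunit precursors in yeast, was not called (99.9 ± 4.60 CPM in the VprBP shRNA and 91.3 ± 5.997 CPM in the control shRNA libraries, log2 0.13, edgeR adjusted p = 0.0562), and it was called higher under 5 of the 12 alternatives.

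The nucleolar proteins Ncl and Npm1, which bind pre-ribosomal RNA and ribosomal proteins and have many other roles, both rose. Ncl (nucleolin) was at 279, 312 and 312 CPM in the VprBP shRNA libraries, against 221, 212 and 209.8 CPM in the control shRNA libraries. The groups did not overlap, and the rise was 1.40-fold (log2 0.49, SE 0.05, edgeR adjusted p = 6.76e-08). Npm1 (nucleophosmin) was at 356, 408 and 409 CPM in the VprBP shRNA libraries, against 319.7, 294 and 297 CPM in the control shRNA libraries. It rose 1.29-fold, again with no overlap (log2 0.36, SE 0.05, edgeR adjusted p = 7.71e-06). Npm1 shares 40.9% of its 50-base stretches with other genes, 10 of them pseudogenes. The 5 of these with a row and over 5% of the stretches held 0.814 to 7.75 CPM in the VprBP shRNA and 0.957 to 6.95 CPM in the control shRNA libraries.

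Of the other nucleolar proteins, Nol8 changed most, with a 2.32-fold fall. It was at 19.0, 21.1 and 19.6 CPM in the VprBP shRNA libraries, against 47.0, 47.7 and 43.5 CPM in the control shRNA libraries (edgeR adjusted p = 1.97e-10), with no overlap. Nolc1, a chaperone of snoRNPs, fell 1.88-fold and Rrp8, which methylates the large ribosomal RNA, fell 1.74-fold (edgeR adjusted p = 8.77e-11 and 7.95e-05). Nol7 was not called, at 33.2 ± 2.29 CPM in the VprBP shRNA and 35.1 ± 2.63 CPM in the control shRNA libraries.

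The remaining 3 members, Nol3, Nol4 and Nol4l, match the rule by name and are not known as ribosome factors. Nol3, an inhibitor of apoptosis also called ARC, was at 2.001, 1.24 and 2.02 CPM in the VprBP shRNA libraries, against 6.22, 8.03 and 5.46 CPM in the control shRNA libraries, a 3.72-fold fall (edgeR adjusted p = 3.46e-06). Nol4l rose 2.62-fold, to 17.5 ± 0.836 CPM in the VprBP shRNA libraries against 6.68 ± 0.691 CPM in the control shRNA libraries (edgeR adjusted p = 2.51e-08). Nol4 was scarce, at 2.75, 4.21 and 1.98 CPM in the VprBP shRNA libraries and 0.957, 0.991 and 0.478 CPM in the control shRNA libraries, and rose 3.64-fold (edgeR adjusted p = 0.000506). The groups of all 3 genes did not overlap. Without these 3 members, 47 of 59 fell, 5 rose and 7 were not called, and no member rose by 2-fold.

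Levels of different genes were compared as CPM per kilobase of annotated exon, which understates genes with a long rare transcript form. The median over the 62 members was 10.3 CPM per kilobase in the VprBP shRNA and 14.7 CPM per kilobase in the control shRNA libraries. Npm1 had the highest level in the VprBP shRNA libraries (193 ± 14.9 CPM per kilobase), where it ranked 2 in the control shRNA libraries (149 ± 6.87 CPM per kilobase). Nop56 ranked 3 of 62 in the VprBP shRNA libraries (48.6 ± 2.07 CPM per kilobase) and 1 in the control shRNA libraries (187 ± 3.08 CPM per kilobase). Gnl3 ranked 16 in the VprBP shRNA and 3 in the control shRNA libraries, and Nop14 ranked 26 in the VprBP shRNA and 6 in the control shRNA libraries. The SD of the log2 level across members was 1.52 in the VprBP shRNA and 1.60 in the control shRNA libraries. Across the 62 members the log2 levels of the groups had a Pearson r of 0.89, a description of genes measured in the same libraries.

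**Figure D3:**
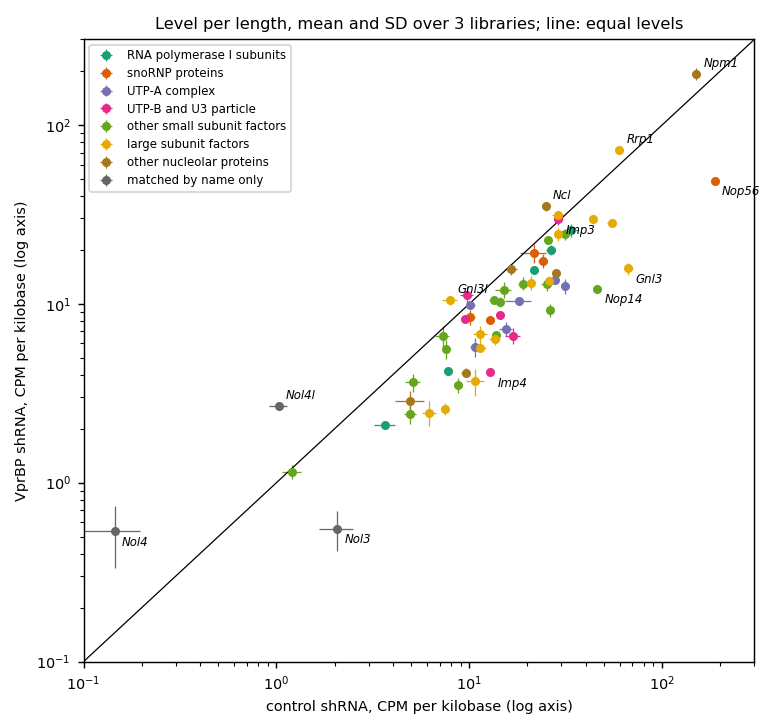
Mean level per kilobase of exon of each member in VprBP shRNA libraries (y axis, log) against control shRNA libraries (x axis, log), with SD over 3 libraries each and colours for roles. The line marks equal levels. Nop56, Gnl3, Nop14 and Imp4 lie far below it, and Npm1, Ncl, Rrp1 and Gnl3l lie above it.

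Ratios of a pair of members within a library do not depend on how libraries are scaled. Their size does depend on the exon lengths used, such as 2636 bases for Nop56 and 9706 bases for Nop58. They are therefore read only between groups, and not as the relative amounts of the 2 transcripts. The pairs were chosen after the values were seen, so the ratios are a description. The ratio of Gnl3 to Gnl3l, per kilobase, was 1.58, 1.30 and 1.68 in the VprBP shRNA libraries, against 8.16, 8.40 and 8.82 in the control shRNA libraries. Nop56 to Nop58 stood at 6.07, 5.75 and 6.18 in the VprBP shRNA libraries, against 14.8, 14.2 and 14.8 in the control shRNA libraries, and Imp4 to Imp3 stood at 0.140 ± 0.00360 in the VprBP shRNA and 0.443 ± 0.0235 in the control shRNA libraries. Rrp1b to Rrp1 was 0.0789 ± 0.00299 in the VprBP shRNA and 0.190 ± 0.0197 in the control shRNA libraries, and Wdr12 to Pes1 was 0.0872 ± 0.00777 in the VprBP shRNA and 0.170 ± 0.00884 in the control shRNA libraries. None of these 5 ratios overlapped between groups. The same held for most of the other pairs formed, not all of which are shown, and for the levels of 77.2% of all genes tested. Other pairs did overlap: Nop10 to Dkc1 (2.08 ± 0.355 in the VprBP shRNA and 2.39 ± 0.293 in the control shRNA libraries), Polr1b to Polr1e (1.995 ± 0.115 in the VprBP shRNA and 2.12 ± 0.222 in the control shRNA libraries) and Heatr1 to Utp4 (0.703 ± 0.0950 in the VprBP shRNA and 0.872 ± 0.152 in the control shRNA libraries). Polr1c to Polr1d, the subunits shared with RNA polymerase III, differed by less than the spread between libraries, at 1.29 ± 0.162 in the VprBP shRNA and 1.28 ± 0.0585 in the control shRNA libraries. Npm1 to Ncl differed little in size (5.50 ± 0.0885 in the VprBP shRNA and 5.996 ± 0.125 in the control shRNA libraries), without overlap.

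**Figure D4:**
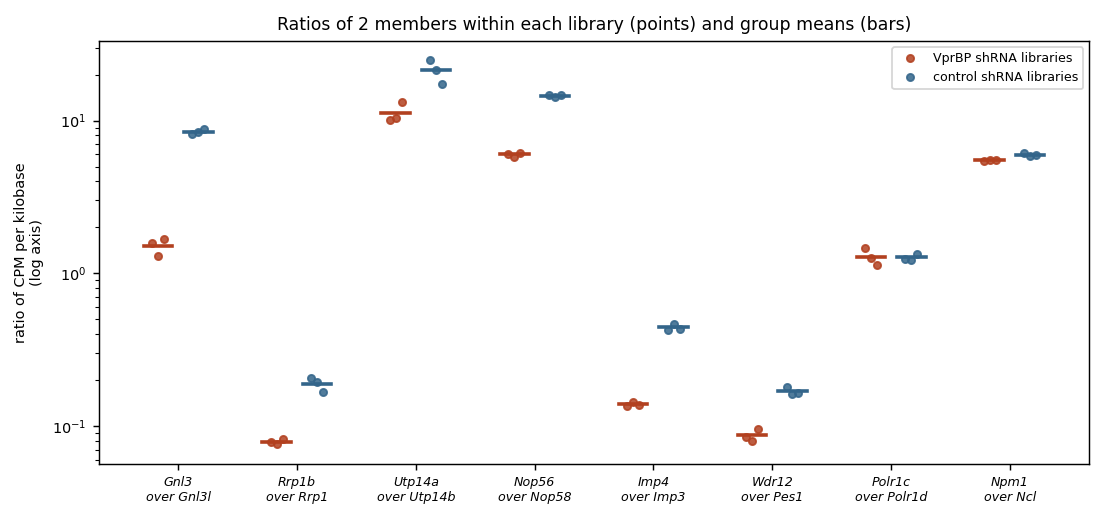
Ratio of 2 members' CPM per kilobase within each library (points, log axis) and group means (bars), VprBP shRNA libraries left of control shRNA libraries. Gnl3 over Gnl3l differs most, at 1.52 ± 0.201 in the VprBP shRNA and 8.46 ± 0.334 in the control shRNA libraries, and Polr1c over Polr1d overlaps.

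The promoters of the 3 members that fell most, of Nol4l and of Ncl show the letters just before genes that moved in opposite directions. RefSeq windows on GRCm38.p6 (250 bases before to 50 after the start) were at hand for 47 of the 62 members, and 150 bases before the start are printed, 5′ to 3′ on the strand of the gene. Capitals mark CACGTG (the E-box that MYC and related factors bind), CCGGAAGT (an ETS-type element), GCATGCGC (the core of the NRF1 element) and CCAAT, on either strand, so that CCAAT may read ATTGG and CCGGAAGT may read ACTTCCGG. The windows lie at chr14:31019132-31019281 on the minus strand for Gnl3, at chr2:130274262-130274411 on the plus strand for Nop56, at chr5:34660149-34660298 on the minus strand for Nop14, at chr2:153529972-153530121 on the minus strand for Nol4l (the upstream window of its pair) and at chr1:86359456-86359605 on the minus strand for Ncl, which was added after its values were seen.
Gnl3: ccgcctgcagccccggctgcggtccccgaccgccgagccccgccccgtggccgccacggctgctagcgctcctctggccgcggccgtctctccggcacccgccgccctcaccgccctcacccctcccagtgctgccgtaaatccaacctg
Nop56: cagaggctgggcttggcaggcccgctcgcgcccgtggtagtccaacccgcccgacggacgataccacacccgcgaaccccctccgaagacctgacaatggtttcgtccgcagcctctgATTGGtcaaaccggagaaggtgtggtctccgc
Nop14: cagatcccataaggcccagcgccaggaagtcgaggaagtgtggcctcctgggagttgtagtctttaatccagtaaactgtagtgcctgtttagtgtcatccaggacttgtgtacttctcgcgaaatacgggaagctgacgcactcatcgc
Nol4l: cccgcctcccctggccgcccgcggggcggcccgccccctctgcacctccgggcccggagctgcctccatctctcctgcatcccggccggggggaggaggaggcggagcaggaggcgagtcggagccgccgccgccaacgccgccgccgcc
Ncl: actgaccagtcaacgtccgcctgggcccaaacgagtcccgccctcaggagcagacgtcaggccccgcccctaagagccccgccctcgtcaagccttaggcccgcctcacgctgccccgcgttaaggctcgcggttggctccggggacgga
None of these 5 held CACGTG, and the ATTGG of Nop56 is the only marked run in them.

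CACGTG stood in the windows of 12 of 47 members (25.5%), against 8.09% of the 27025 genes with a window and 11.8% of the 9981 protein-coding genes that had a window and were tested. CCGGAAGT stood in 10 members (21.3%), against 4.31% of all genes and 9.23% of the tested protein-coding genes. CCAAT stood in 15 members (31.9%), against 41.1% and 43.4%, and GCATGCGC in 0 of 47, against 3.05% and 6.10%. Searches covered both strands, and CACGTG reads the same on both. Members with and without the E-box had similar medians: the median log2 difference was -0.76 over the 12 members with CACGTG and -0.80 over the 35 without it in the window. CCGGAAGT gave the same picture, at -0.80 over 10 members with it and -0.80 over the 37 without.

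In 5 members CACGTG lay within the 150 bases before the start, and all 5 are shown. Imp4 (3.09-fold lower), Nop2 (1.93-fold lower) and Utp18 (1.66-fold lower) fell, and Nol11 and Utp14b were not called. The first base of CACGTG lies 121 bases before the start in Imp4, 60 in Nop2, 20 in Utp18, 43 in Nol11 and 63 in Utp14b. The windows, marked as above, lie at chr1:34439679-34439828 (plus strand), chr6:125131733-125131882 (plus), chr11:93885767-93885916 (minus), chr11:107189382-107189531 (minus) and chr1:78658290-78658439 (plus), in the order shown.
Imp4: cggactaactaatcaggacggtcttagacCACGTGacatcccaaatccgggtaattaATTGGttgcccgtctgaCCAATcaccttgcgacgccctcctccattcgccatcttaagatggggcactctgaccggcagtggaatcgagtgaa
Nop2: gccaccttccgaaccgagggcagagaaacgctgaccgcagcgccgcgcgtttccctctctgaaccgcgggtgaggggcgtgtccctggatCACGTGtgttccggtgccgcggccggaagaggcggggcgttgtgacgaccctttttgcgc
Utp18: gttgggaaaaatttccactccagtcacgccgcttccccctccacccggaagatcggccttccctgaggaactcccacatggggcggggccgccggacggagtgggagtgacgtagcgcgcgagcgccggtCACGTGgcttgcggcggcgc
Nol11: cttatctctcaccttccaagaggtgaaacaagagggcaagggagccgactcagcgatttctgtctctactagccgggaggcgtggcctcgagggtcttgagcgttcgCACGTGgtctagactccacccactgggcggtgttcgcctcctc
Utp14b: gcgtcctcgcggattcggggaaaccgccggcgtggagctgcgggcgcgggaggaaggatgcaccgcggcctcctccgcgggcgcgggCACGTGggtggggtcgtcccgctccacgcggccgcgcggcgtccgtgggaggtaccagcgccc
A match is a run of letters in a window and not a measured binding site.

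Several members share a start region with a neighbour on the other strand. In 15 cases a protein-coding neighbour that was tested starts within 1000 bases, and the nearest one was taken. The member's own difference was below 0 in each of them, so the same sign means a neighbour below 0 too. This was so in 11 pairs, where the median log2 difference over all genes tested was -0.01. Across the 15 pairs the differences of member and neighbour had a Pearson r of 0.08. Both genes were called in 10 pairs, 7 with the same sign, so that both fell. Of all genes tested, 75.0% were called either way and 37.0% fell. The 3 opposite pairs were Gnl3 and Pbrm1, whose annotated starts overlap by 14 bases, Nol8 and Cenpp, and Nop16 and Higd2a. Gnl3 fell 4.24-fold while Pbrm1, a subunit of a chromatin remodelling complex, rose 1.44-fold (edgeR adjusted p = 5.61e-08). Cenpp, a centromere protein, rose 3.54-fold, and Higd2a, a mitochondrial protein, rose 1.24-fold (edgeR adjusted p = 0.000142 and 0.00173). Imp4 and Ccdc115, by contrast, both fell (3.09-fold and, for Ccdc115, log2 -0.81, edgeR adjusted p = 1.90e-05).

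Genes for snoRNAs lie inside 8 members, mostly in introns: 5 are inside Nop56, 4 inside Nop58, 3 each inside Gnl3, Ncl and Wdr43, 2 inside Tsr1 and 1 each inside Dkc1 and Nop53. In Nop56, Gm23187 overlaps an annotated exon. Of these 8 hosts 6 fell, 1 rose (Ncl) and 1 was not called (Nop53), with a median log2 difference of -0.86. Of the 54 other members 42 fell, 6 rose and 6 were not called, with a median of -0.62. The 8 hosts ranged from -2.08 (Gnl3) to 0.49 (Ncl), and whether hosts differ from the other members was not tested. The table has 1 row typed as snoRNA, at 0.111 ± 0.00306 CPM in the VprBP shRNA and 0.243 ± 0.116 CPM in the control shRNA libraries, and the hosted RNAs were not analysed here.

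Genes of the same pathway that the rule leaves out were mostly lower too. Of 117 tested genes on such lists, 102 fell, 39 by at least 2-fold, 7 rose and 8 were not called (median log2 -0.76). Of all genes tested 37.0% fell, 14.2% by at least 2-fold, and 37.9% rose. These shares are the background for each of the lists that follow. Of 11 further RNA polymerase I genes 8 fell. Znrd1, Twistnb and Cd3eap are themselves subunits of the polymerase, under symbols that the rule does not match, and fell 1.92-fold, 1.29-fold and 1.29-fold (edgeR adjusted p = 2.49e-05, 0.000958 and 0.0439). Taf1a and Taf1c, subunits of the factor that selects its promoter, fell 3.35-fold and 2.97-fold, and Rrn3, which joins the polymerase to that factor, fell 1.60-fold (edgeR adjusted p = 3.64e-10, 6.04e-08 and 3.32e-08). Ubtf, which binds along the ribosomal DNA, rose 1.28-fold, and Baz2a, which silences ribosomal DNA copies, rose 1.10-fold (edgeR adjusted p = 3.21e-05 and 0.00832). Taf1b was not called (25.7 ± 2.35 CPM in the VprBP shRNA and 25.0 ± 1.74 CPM in the control shRNA libraries).

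Among 11 further snoRNP proteins and assembly factors 10 fell, among them Gar1, Znhit3, Nufip1 and Nhp2 (2.23-fold, 2.001-fold, 1.69-fold and 1.69-fold lower), and Naf1 was not called (log2 0.14, edgeR adjusted p = 0.162). Small subunit factors fell in 31 of 34 cases, 13 by at least 2-fold (median log2 -0.83). Ngdn fell 4.41-fold, to 23.0 ± 2.65 CPM in the VprBP shRNA libraries against 101 ± 6.01 CPM in the control shRNA libraries, the kinase Riok3 2.54-fold and Pdcd11, which binds the precursor, 2.37-fold. Noc4l, Ddx10 and Esf1 were not called. Large subunit factors fell in 42 of 47 cases, 19 by at least 2-fold (median log2 -0.86). Urb1 fell 4.21-fold, Ppan 3.63-fold and the methyltransferase Ftsj3 2.77-fold, the last to 77.1 ± 1.82 CPM in the VprBP shRNA libraries against 213 ± 6.06 CPM in the control shRNA libraries. Ddx24 (1.33-fold), Nvl (1.22-fold) and Guf1 (2.22-fold) rose. Guf1 is a GTPase of mitochondrial translation and stands on the list in error. Senp3 and Efl1 were not called. Of 14 genes listed for the nuclear exosome, which trims precursor RNA, 11 fell, among them Mphosph6, Exosc1, Dis3 and Exosc2 (2.59-fold, 2.47-fold, 2.14-fold and 1.93-fold lower), Exosc8 and Mtrex rose (1.22-fold and 1.15-fold), and Exosc10 was not called. Mpp6, 1 of the 11 (1.31-fold lower), is a scaffold protein of the cell membrane and stands on the list in error.

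**Figure D5:**
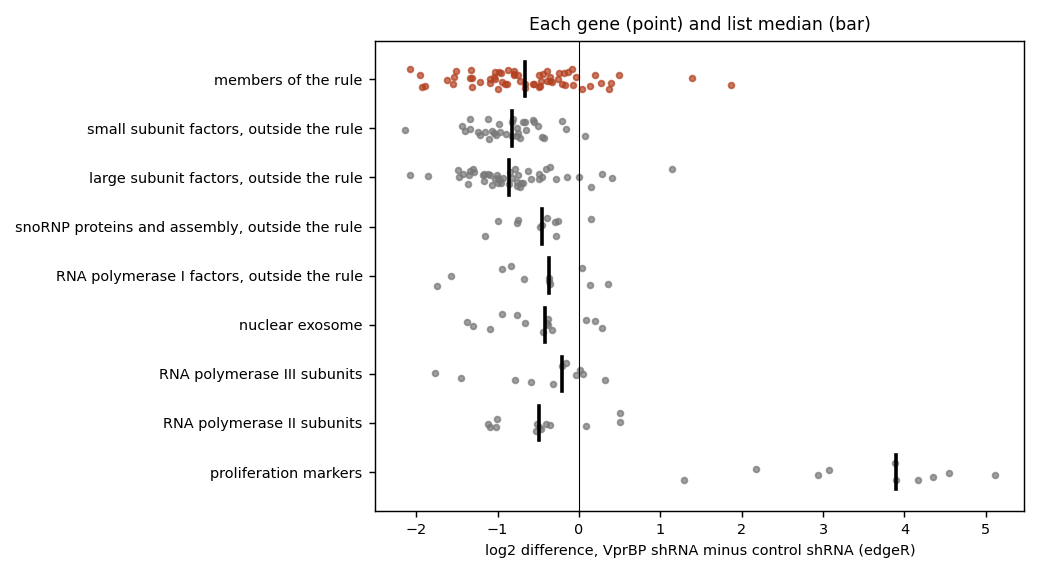
Log2 difference (VprBP shRNA minus control shRNA, x axis) of each tested gene (points) with the median of its list (bars), for the members, for pathway genes outside the rule, for the other RNA polymerases and for proliferation markers. The medians of the pathway lists lie between -0.86 and -0.37, and that of the 10 proliferation markers lies at 3.89.

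Of 13 proteins listed for RNA polymerase II, some of which the other polymerases share, 10 fell, where 37.0% of all genes tested fell. Another 2 rose (Polr2l and Polr2m) and Polr2b was not called. The median log2 difference was -0.49, close to the -0.47 of the 5 members that are RNA polymerase I subunits. Polr2a, its largest subunit, fell 2.18-fold (298 ± 5.31 CPM in the VprBP shRNA and 649 ± 27.3 CPM in the control shRNA libraries), and Polr2g and Polr2d fell 2.03-fold and 2.14-fold. Of 11 subunits found only in RNA polymerase III, 5 fell, Polr3k rose and 5 were not called (median log2 -0.21), with Polr3d 3.40-fold, Crcp 2.74-fold and Polr3a 1.73-fold lower. That share of lower calls is close to the 37.0% of all genes tested that fell. Whether the 3 polymerases differ was not tested.

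Reads of overlapping genes cannot be told apart here, since the strand setting of the counting is not given. Exons of a gene on the other strand cover 48.2% of Nol3 (4931428F04Rik), 34.2% of Tsr1 (Srr), 30.8% of Nop9 (Cideb), 21.3% of Nol7 (Ranbp9), 18.9% of Utp14a (a long noncoding RNA) and 14.9% of Rrp7a (Serhl). Srr was at 23.7 ± 2.37 CPM in the VprBP shRNA and 21.6 ± 2.44 CPM in the control shRNA libraries, so it did not move with Tsr1. Serhl was at 45.7 ± 2.25 CPM in the VprBP shRNA and 16.2 ± 1.87 CPM in the control shRNA libraries, the opposite direction to Rrp7a. Cideb stood at 0.360 CPM in the VprBP shRNA and 0.640 CPM in the control shRNA libraries, far below Nop9. For Nol3 the overlap weighs more. 4931428F04Rik was at 1.60 CPM in the VprBP shRNA and 1.13 CPM in the control shRNA libraries. Nol3 itself was at 1.76 CPM in the VprBP shRNA and 6.57 CPM in the control shRNA libraries. Pes1 shares 24.1% of its stretches, with pseudogenes among others. Fbl, Npm1 and Nop56 share more of their stretches, as given above. The values of all these genes are less certain than those of members with little overlap or shared sequence.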

How the data were processed

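RNA was measured by sequencing in 6 libraries, 3 per group, grouped by the genotype label and title. The deposited values are expected counts per gene (estimated counts that need not be whole numbers), not scaled between libraries, in a single table made by the authors. Libraries were built with a SMARTer mRNA kit from column-purified RNA, per the labels' protocols. The submitters' processing notes name Partek and the build mm10 (GRCm38). Aligner, counter, strand and annotation release were not given in the sources used here. In each library 62.1% to 64.5% of values were whole within 0.001. Shared reads give fractions, so genes with near-identical copies are less certain.

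The counts were rounded to whole numbers and fitted over the whole table in R 4.3.3 with edgeR 4.0.16 (quasi-likelihood F test, TMM scaling, filterByExpr, group as the only term), with Benjamini-Hochberg adjustment over 14641 genes. The script was tested on simulated data. The biological coefficient of variation was 6.70%. Levels are CPM with TMM factors, as mean ± SD of 3 libraries, and folds come from the edgeR log2 difference (VprBP shRNA minus control shRNA), and can differ slightly from a ratio of means. No label ties the libraries to separate animals or cultures: the p-values measure the spread between libraries alone, which may be technical. Coordinates and exon lengths (merged exons of protein-coding transcripts) are from GENCODE M21, with which all 62 members agreed in version and position. Shared sequence was counted as 50-base stretches of a member's longest annotated protein-coding transcript that were found in a transcript of another gene.

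The members, the lists and the tests were chosen with earlier results of these data known. Every member is accounted for. Those named with values are, in each role, the 2 that changed most, all members that are subunits of RNA polymerase I or snoRNP proteins, and all members that rose, fell by at least 2-fold or were not called. Outside the rule, each list names the 3 genes with the smallest p and, after values were seen, most of those that did not fall and a few further ones. Alternatives were DESeq2 size factors, library size only, no filter, unrounded counts, DESeq2 1.42.0, a replicate block and leaving out each library.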

Additional observations from a re-analysis of the deposited data

How the results depend on the processing

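Over the 62 members and 12 alternatives, 721 of 744 results stayed on their side of the threshold, 17 lost their call, 6 gained one and 0 called values turned round. The changes were in 7 members (Bms1, Bop1, Dkc1, Fbl, Nop53, Utp6 and Wdr36), and the other 55 members stayed called, or not called, under every alternative run. With library size as the only scaling, the log2 median over all genes shifted by 0.12, and 3 members that were not called changed sign. The median of the members was then -0.55, and relative to the median of all genes it was -0.65, as with TMM scaling. The summed level of the members then differed by -1092 CPM, where it differed by -1385 CPM with TMM, and Dcaf1 was no longer called (log2 -0.12, edgeR adjusted p = 0.137). Members that fell numbered 44 to 49, those that rose 6 to 8 and those lower by at least 2-fold 13 to 20 over the alternatives. Fbl was called lower without control shRNA library 1 (log2 -0.29, edgeR adjusted p = 0.0310).

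The replicate numbers of the titles did not pair the libraries: same-numbered libraries had correlations of -0.032, 0.007 and -0.042 between their deviations from the group means. With the numbers as a replicate block, 48 members fell, 6 rose and 18 fell by at least 2-fold, the median was -0.67, 101 pathway genes outside the rule fell and 6 rose, Dcaf1 differed by -0.24 (edgeR adjusted p = 0.0150), and Utp6 was not called (edgeR adjusted p = 0.0879).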

Other observations

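The table has 1 row typed as ribosomal RNA, CT010467.1 on chromosome 17. It held 2321, 2034 and 1722 CPM in the VprBP shRNA libraries and 2463, 2420 and 2990.5 CPM in the control shRNA libraries, a log2 difference of -0.37 (edgeR adjusted p = 0.000581). The groups did not overlap. The kit named in the labels' protocols is one for messenger RNA, and the row is not read here as an amount of ribosomal RNA.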
